A study of Mus musculus with 48 samples.

Results

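The genes described here are 10 genes of brown and beige fat thermogenesis, followed in mice 9 days after Roux-en-Y gastric bypass (RYGB) or sham surgery. The members were chosen by name: Ucp1, Cidea, Dio2, Cox7a1, Cox8b, Slc6a8, Ppargc1a, Ppargc1b, Prdm16 and Esrrg. Of the 15541 genes listed in at least 1 of the 6 tissue tables, these were 10. All 10 were listed in subcutaneous white adipose tissue (WAT) and 9 in gastrocnemius muscle, where Ucp1 was not listed. Liver listed 5 (Ppargc1a, Ppargc1b, Cox7a1, Esrrg and Slc6a8), and the villi of the duodenum, jejunum and ileum each listed 5 (Ppargc1a, Ppargc1b, Prdm16, Cox7a1 and Slc6a8).

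Every mouse was a male C57Bl6 with obesity induced by a high fat diet, and after RYGB or sham surgery both groups received an elemental liquid diet for 9 days and were fasted overnight before they were killed at 10am. The protocol label adds a return to the high fat diet after the liquid diet, and does not say whether this had begun in these mice. WAT, muscle and liver had 4 RYGB and 4 Sham libraries each, duodenum and jejunum 3 and 4, and ileum 5 and 5, which gave 48 mRNA sequencing libraries. Age and weight matching are not in the labels, and neither is whether libraries of one number came from the same mouse, so p-values measure the spread between these libraries.

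Brown adipocytes burn fuel to make heat through UCP1, a protein that lets protons leak back across the inner mitochondrial membrane, and beige adipocytes are cells within white depots that can take up the same programme after cold or sympathetic stimulation. The programme is switched on through cyclic AMP and the coactivator PGC-1α, which works with nuclear receptors such as the estrogen-related receptors, while PRDM16 directs cells to the brown fate. Several of the genes also serve oxidative muscle fibres, which share their demand for mitochondria, and some serve other tissues altogether.

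Levels are given in CPM, the reads of a gene per 1000000 reads of its library, and fold changes on the log2(CPM + 1) scale, which understates the change of genes near or under 1 CPM. A gene was called where its adjusted p was under 0.05 and its fold change at least 1.5 (limma, Benjamini-Hochberg adjustment over all genes tested in the tissue). The labelled tissues carried their defining markers, with 11 of 11 white adipocyte markers listed in WAT, 14 of 14 skeletal muscle markers in muscle, 6 of 6 hepatocyte markers in liver and 6 of 6 enterocyte markers in each villus table. In WAT the groups differed in marker RNA of other cell types. Summed B and T lymphocyte markers (10 of 10 listed, 10 called higher) ranged from 928 to 2676 CPM in the RYGB group and from 13.9 to 26.4 CPM in the Sham group. Summed white adipocyte markers ranged from 12217 to 27890 CPM and from 25391 to 32754 CPM, respectively, and RYGB replicate 4 was lowest in adipocyte and highest in lymphocyte markers. Macrophage markers had 4 of 8 called lower, keratinocyte markers (5 of 8 listed) 1 higher and 3 lower, and nerve markers (3 of 6 listed) 1 lower, while Th and Dbh, the enzyme genes of sympathetic noradrenaline synthesis, were not listed. In bulk tissue, fewer cells of a type cannot be told apart from less RNA per cell.

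Promoters of 7 of the 10 members were found among the RefSeq promoter sequences (GRCm38.p6, 250 bases before to 50 bases after the start), and Cidea, Ppargc1b and Slc6a8 had no entry. As Esrrg has several starts, this gave 10 windows. Both strands were searched for 3 motifs, those of the cyclic AMP response and of nuclear receptors, including the estrogen-related receptors. The cyclic AMP element TGACGTCA was in 1.79% of all 32851 promoters and in 1 member window, that of Dio2. The nuclear receptor letters AGGTCA were in 16.3% of all promoters and in 1 member window, that of Ucp1. The longer estrogen-related receptor site TCAAGGTCA, which contains AGGTCA, was in 0.423% of all promoters and in none of the 10 member windows. The 2 stretches are shown because they lie just before the RefSeq starts of the uncoupling protein gene and of the deiodinase gene, with the motif in capitals and read 5′ to 3′ along the gene. For Dio2 the RefSeq start lies upstream of the GENCODE M21 start of the gene (90738438, minus strand), so the motif is farther from the latter. A match describes the letters and not a bound site.
Ucp1, chr8:83290314-83290347, plus strand, motif 14 bases before the RefSeq start: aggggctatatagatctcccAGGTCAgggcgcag
Dio2, chr12:90739106-90739153, minus strand, motif 95 bases before the RefSeq start: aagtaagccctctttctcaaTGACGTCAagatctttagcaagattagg

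In WAT, the tissue in which beige adipocytes arise, none of the 10 genes was called higher after RYGB, and 1, the creatine transporter gene Slc6a8, was called lower. Of all 13379 genes tested in WAT, 14.9% were called higher and 9.23% lower, so 0 and 1 of 10 members compare with a tissue in which much of the transcriptome was called. No member had all RYGB libraries above all Sham libraries, where 26.1% of all genes did. At an unadjusted p under 0.05, Cox8b was higher and Slc6a8 lower. The log2 fold change was positive for 7 members and negative for 3, with a median of 0.42, against a median of 0.11 over all genes tested. Scaling each library to its white adipocyte markers, with Lep and Retn left out of the scale here and below, adds 0.44 to the log2 fold change of an abundant gene. It moved the median of all genes to 0.52. Calls over all genes then changed from 1996 higher and 1235 lower to 1509 higher (11.3%) and 53 lower (0.396%).

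**Figure D1:**
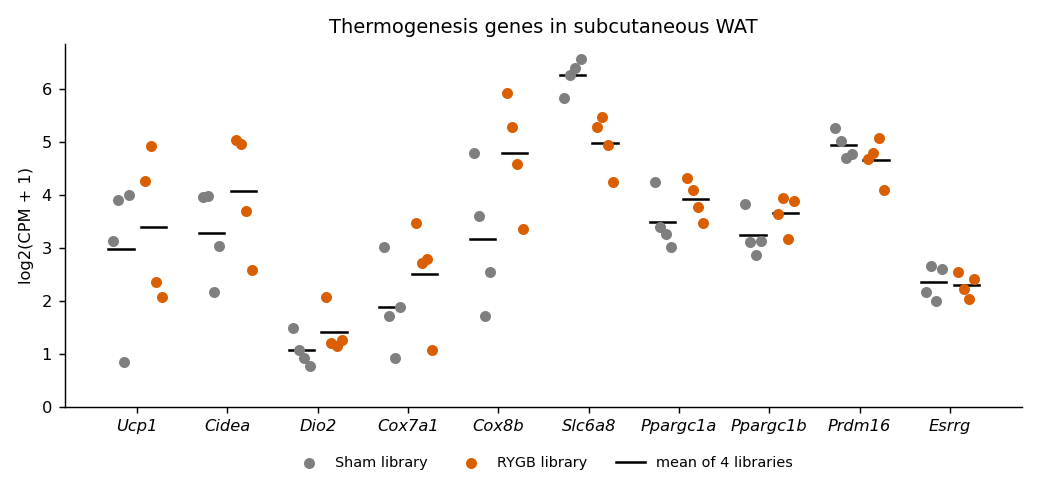
Level of the 10 members in subcutaneous WAT, as log2(CPM + 1) on the vertical axis, with 1 point for each of the 4 Sham (gray) and 4 RYGB (orange) libraries and a line at the group mean. Slc6a8 is the only member whose groups do not overlap, and Ucp1, Cidea, Cox7a1 and Cox8b vary most among libraries of one group.

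Ucp1 (chr8:83290352-83298452 in GRCm38, plus strand), which encodes the uncoupling protein itself, was measured at 18.3, 29.3, 4.1 and 3.2 CPM in RYGB replicates 1 to 4 and at 7.8, 14.0, 0.8 and 15.0 CPM in Sham replicates 1 to 4. The groups overlapped, with 2 RYGB libraries above every Sham library and 1 Sham library below every RYGB library, and had means of 13.7 ± 12.5 and 9.40 ± 6.56 CPM (SD, n = 4 each). Its log2 fold change of 0.43 had a standard error of 0.84 and a 95% interval from -1.47 to 2.33 (adjusted p = 0.70), so these libraries bounded a change of Ucp1 only loosely in either direction. Within the sequencing lanes that held both groups, the difference was 0.11 in lane 5 and -1.93 in lane 6, and with lane as a covariate it was -0.57. Leaving out RYGB replicate 2 or Sham replicate 3 also turned the sign (-0.08 and -0.28).

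Cidea, which encodes a lipid droplet protein abundant in brown adipocytes, was at 31.7, 30.1, 12 and 5.0 CPM in the RYGB libraries and 14.5, 14.7, 3.5 and 7.2 CPM in the Sham libraries. Its log2 fold change was 0.79 ± 0.60 (SE), with a 95% interval from -0.57 to 2.14 (adjusted p = 0.313). Replicates 1 and 2 were the higher pair in both groups. Within lanes the difference was 0.37 in lane 5 and -0.45 in lane 6.

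Cox8b (chr7:140898945-140900446) and Cox7a1 (chr7:30184144-30186078) encode forms of cytochrome c oxidase subunits that are typical of brown fat, muscle and heart. Cox8b was at 60.2, 38.1, 22.9 and 9.2 CPM after RYGB and at 26.9, 11.1, 2.3 and 4.8 CPM after sham surgery, the largest positive fold change of the 10. RYGB replicate 4 lay below 2 of the 4 Sham libraries. The log2 fold change was 1.62 ± 0.72 (SE; 95% interval 0.00 to 3.24), with an unadjusted p of 0.0495 and an adjusted p of 0.0992, and the within-lane differences were 0.73 and 0.81. Cox8b passed the threshold without RYGB replicate 4 (log2 fold change 2.10, adjusted p = 0.0399) or without Sham replicate 1 (2.17, adjusted p = 0.0388), and when libraries were scaled to their white adipocyte markers (2.01, adjusted p = 0.0259). Over the 16 alternatives its adjusted p ranged from 0.0154 to 0.233.

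Cox7a1 was at 10.1, 5.6, 5.9 and 1.1 CPM in the RYGB libraries and 7.1, 2.3, 0.9 and 2.7 CPM in the Sham libraries. With a log2 fold change of 0.62 ± 0.56 (SE; adjusted p = 0.388), its groups overlapped, and its within-lane differences were 0.38 and -0.82. Skeletal muscle expresses both Cox7a1 and Cox8b at high levels, so muscle RNA was measured beside them. Only 4 of 14 muscle markers were listed in WAT, Ckm and Myh4 were not listed, and the sum of the 4 was 5.2 to 51.2 CPM in the RYGB group and 4.1 to 66.1 CPM in the Sham group. Without the library highest in these markers in each group (RYGB replicate 2 and Sham replicate 2), the log2 fold change of Cox8b was 1.60 (adjusted p = 0.233).

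Cidea, Cox7a1 and Cox8b varied together from library to library. With the group means removed, Pearson's r across the 8 WAT libraries was 0.92 for Cidea and Cox8b, 0.92 for Cox7a1 and Cox8b, and 0.84 for Cidea and Cox7a1. For Ucp1, r was 0.84 with Cidea, 0.66 with Cox8b and 0.60 with Cox7a1, and Ppargc1a correlated with Cox8b at 0.90. These points share the composition of each library and are given as a description. The 5 genes outside the members most like Ucp1 by the same measure were Aars (0.97), Clec4a3, Fam45a and Mff (0.96 each) and Naglu (0.94).

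Dio2 encodes the deiodinase that makes active thyroid hormone within brown adipocytes, and in WAT it was near the lower limit of what these tables resolve. It was at 3.2, 1.3, 1.2 and 1.4 CPM after RYGB and 1.8, 1.1, 0.9 and 0.7 CPM after sham surgery. A log2 fold change of 0.36 ± 0.25 (SE; adjusted p = 0.28) went with differences of -0.11 within lane 5 and 0.50 within lane 6. RYGB replicate 1, the highest library, was alone in its lane.

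Slc6a8 (chrX:73673150-73682502), which carries creatine into cells and is linked to a futile creatine cycle in beige adipocytes, fell after RYGB. It was at 37.9, 43.6, 30 and 18 CPM in the RYGB libraries and 56.3, 75.7, 84.0 and 93.7 CPM in the Sham libraries, and every RYGB library lay below every Sham library, as was so for 15.0% of all genes tested in WAT. The log2 fold change was -1.28 ± 0.27 (SE; 95% interval -1.88 to -0.68, adjusted p = 0.00862), with -0.83 within lane 5 and -2.32 within lane 6. RYGB replicate 4, with the lowest adipocyte markers, was also lowest in Slc6a8, and the fold change without it was -1.03 (adjusted p = 0.00468). With WAT libraries scaled to their white adipocyte markers, the median of all genes was 0.52 and 0.396% were called lower. Slc6a8 was then at -0.85 (adjusted p = 0.0562), and its call was lost. Over all 16 alternatives the adjusted p ranged from 0.00468 to 0.0562, and the part of the lower adipocyte and higher lymphocyte content in this result was not tested.

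None of the regulators of the programme was called in WAT. Ppargc1a (chr5:51454250-51567726), the gene of PGC-1α, was at 19.1, 16.2, 12.7 and 10.1 CPM after RYGB and 18.1, 9.5, 8.6 and 7.1 CPM after sham surgery, with a log2 fold change of 0.44 ± 0.28 (SE; adjusted p = 0.238). Sham replicate 1 was the only Sham library within the range of the RYGB group, and without it the fold change was 0.70 (adjusted p = 0.0456). Its relative Ppargc1b, which encodes PGC-1β, was at 11.5, 14.4, 8.0 and 13.7 CPM and at 13.2, 7.7, 6.3 and 7.8 CPM, with a log2 fold change of 0.42 ± 0.24 (SE; adjusted p = 0.185). The lane 6 differences were 0.45 for Ppargc1a and 0.74 for Ppargc1b, and those of lane 5 were 0.12 and 0.08.

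Prdm16 was at 24.6, 26.6, 32.6 and 16.0 CPM in the RYGB libraries and 37.6, 31.5, 25.0 and 26.3 CPM in the Sham libraries (log2 fold change -0.29 ± 0.21 SE, adjusted p = 0.305). Esrrg, which encodes an estrogen-related receptor of oxidative tissues, was at 4.8, 3.7, 3.1 and 4.3 CPM against 3.5, 5.3, 3.0 and 5.1 CPM (-0.06 ± 0.19 SE, adjusted p = 0.831). Both groups overlapped for each of these regulators, and the sign turned when libraries were scaled to white adipocyte markers (0.14 for Prdm16 and 0.30 for Esrrg). In lanes 5 and 6 the differences were -0.22 and -0.68 for Prdm16 and -0.28 and -0.20 for Esrrg.

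Per kilobase of exon, Cox8b was the most abundant member in WAT after RYGB (90.6 CPM per kb, against 31.3 in the Sham group) and Dio2 the least (0.305 and 0.193). Slc6a8 was at 6.21 CPM per kb after RYGB and 14.9 after sham surgery. Ucp1, at 8.39 and 5.75 CPM per kb, lay below Cidea (17.7 and 8.95) and Cox7a1 (10.6 and 6.07) in both groups. 

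In the wider gene lists of the programme, WAT calls went in both directions, to be read against the 14.9% of all genes called higher and the 9.23% called lower. Among 26 further genes of brown adipocytes, 21 were tested and 3 were called higher, a share near that of all genes, and the median over the list was 0.01 on the log2 scale. The 3 were Epsti1 (2.90, adjusted p = 0.000346), Acot11 (0.63, adjusted p = 0.035), which encodes an acyl-CoA thioesterase, and Pank1 (0.61, adjusted p = 0.0264), an enzyme gene of coenzyme A synthesis. Epsti1, which is known as an interferon-responsive gene, was at 97.6 to 260.4 CPM after RYGB and 14.7 to 21.4 CPM after sham surgery. The part of the lymphocyte RNA in these values was not tested. Adrb3, the β3-adrenergic receptor gene through which noradrenaline acts on adipocytes, was at 175.0 to 319.5 CPM after RYGB and 96.3 to 405.5 CPM after sham surgery (0.71, adjusted p = 0.208). After scaling to white adipocyte markers 2 of the 21 were called higher, Acot11 no longer among them (adjusted p = 0.0804), and the median was 0.44. Over all genes 11.3% were then called higher, with a median of 0.52.

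Of 9 beige adipocyte markers, 7 were tested, 3 were called higher and 1 lower. Fold changes were positive for 4 and negative for 3, with a median of 0.86. Tmem26, a surface protein gene used to mark beige cells, was at 7.7 to 14.0 CPM after RYGB and 1.6 to 4.6 CPM after sham surgery (log2 fold change 1.56, adjusted p = 0.00424). Tbx1, a transcription factor gene, was at 3.5 to 6.6 CPM against 0.8 to 2.6 CPM (1.05, adjusted p = 0.0131). The third, Tnfrsf9 (1.80, adjusted p = 0.0151), encodes the receptor 4-1BB, which activated T cells also carry. Ear2, which encodes an eosinophil ribonuclease from a family of near-identical genes and is uncertain for that reason, was lower (-0.65, adjusted p = 0.0354). Slc27a1, the most abundant of the listed markers, was at 164.9 to 397.9 CPM after RYGB and 304.8 to 769.0 CPM after sham surgery. Its fold change (-0.87, adjusted p = 0.0772) and that of Hoxc9 (-0.18, adjusted p = 0.612) were negative and not called. With scaling to white adipocyte markers 4 of the 7 were called higher and 0 lower, where 11.3% of all genes were called higher and 0.396% lower. Fold changes were then positive for 5 and negative for 2, with a median of 1.2 against 0.52 over all genes. Tmem26, Tbx1 and Tnfrsf9 kept their calls (1.92, 1.37 and 2.16), and Ear2 lost its call (-0.27). The fourth, P2rx5, was called only after scaling (adjusted p = 0.0201, against 0.079 without scaling). The part of the lymphocyte RNA in these marker values was not tested.

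Creatine and calcium cycling, the route to heat that does not need UCP1, had 7 of 12 genes tested, and the fold change of each of the 7 was negative (median -0.47). Ckb, the creatine kinase of the creatine cycle, fell by 0.90 on the log2 scale (adjusted p = 0.0183), and Gatm, an enzyme of creatine synthesis, fell by 0.77 (adjusted p = 0.0122). Both belong to the same pathway as Slc6a8. With scaling to white adipocyte markers neither was called (-0.47 for Ckb and -0.35 for Gatm, adjusted p = 0.19 and 0.323). Of the 7 fold changes 3 were then positive, and the median was -0.07. Over all genes the median was 0.52 with this scaling and 0.11 without it. Few genes of any kind were called lower after it (0.396% of all genes, against 9.23% without it). Of 11 repressors of the brown programme, 2 were lower and none higher, namely Zfp423 (-0.75, adjusted p = 0.0124), which keeps adipocytes white, and Ctbp2 (-0.65, adjusted p = 0.00929). White adipocyte markers had a median of -0.54 over 11 genes, with Lep, the leptin gene, called lower (-1.38, adjusted p = 0.0309). Scaled to those markers without Lep and Retn, none of the repressors was called in either direction, and Zfp423 (-0.32), Ctbp2 (-0.22) and Lep (-0.94) lost their calls.

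Among 15 PGC-1 partners and genes of mitochondrial biogenesis, 13 were tested, 1 was called higher and 2 lower. Of the 13 fold changes 10 were positive and 3 negative, with a median of 0.16, against 0.11 over all genes. Tfam, which maintains mitochondrial DNA, rose by 0.79 (adjusted p = 0.00421), whereas the thyroid hormone receptor genes Thra and Thrb fell by 0.62 and 0.63 (adjusted p = 0.0298 and 0.0299). Among the ubiquitous cytochrome c oxidase subunits, 11 were tested and 1 was called higher, Cox7c (0.70, adjusted p = 0.0092), a gene with near-identical processed copies whose value is uncertain. The fold changes of these subunits were positive for 10 and negative for 1, with a median of 0.32. Of the closest relatives of the members, Mecom, a PRDM family gene, was lower (-0.97, adjusted p = 0.00786). Ucp2 (0.21), Ucp3 (0.22), Cox7a2 (0.26), Cox8a (-0.03), Pprc1 (0.45) and Cidec (-0.68) were not called. Esrra, a partner of PGC-1α and relative of Esrrg, had a fold change of 0.54 with an adjusted p of 0.034, under the 1.5-fold minimum. The same scaling ended the calls of Thra (-0.19), Thrb (-0.20) and Mecom (-0.55), kept those of Tfam (1.22) and Cox7c (1.09), and gave a call for Esrra (0.97, adjusted p = 0.0368). It made 4 of the 11 cytochrome c oxidase subunits called higher, with a median of 0.76. Over all genes this scaling gave a median of 0.52, with 11.3% called higher and 0.396% lower.

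**Figure D2:**
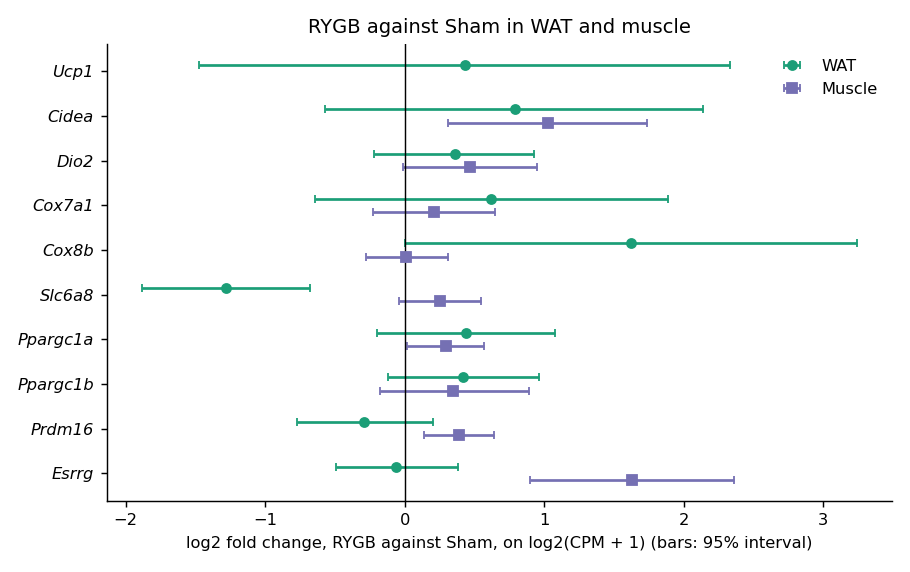
Log2 fold change of RYGB against Sham on log2(CPM + 1), with its 95% interval, for each member in WAT (circles) and muscle (squares), each from its own fit on 4 and 4 libraries. The WAT interval of Slc6a8 lies wholly below 0 and the muscle intervals of Esrrg, Cidea, Prdm16 and Ppargc1a wholly above 0. In WAT the interval of Cox8b runs from 0.00 after rounding to 3.24, and that of Ucp1 spans -1.47 to 2.33.

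In muscle none of the 9 listed members was called, and none of the 11966 genes tested was called either (0.0% by limma). At an unadjusted p under 0.05, 4 of the 9 members were higher and 0 lower, where 10.0% of all genes tested were higher by that measure (1200 genes, of 1746 in either direction). Fold changes were positive for each of the 9, with a median of 0.35 against 0.05 over all genes. The 4 were Esrrg, Prdm16, Cidea and Ppargc1a. Cidea reached the minimum mean of 1 CPM for testing only through its RYGB libraries (mean 2.0 CPM, against 0.425 CPM in the Sham group). Its place among the 4 is therefore not independent of its direction. Without RYGB replicate 3 it fell under that minimum and was left out of the fit. The count of all genes called was 210 without RYGB replicate 4 and 57 without Sham replicate 3.

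**Figure D3:**
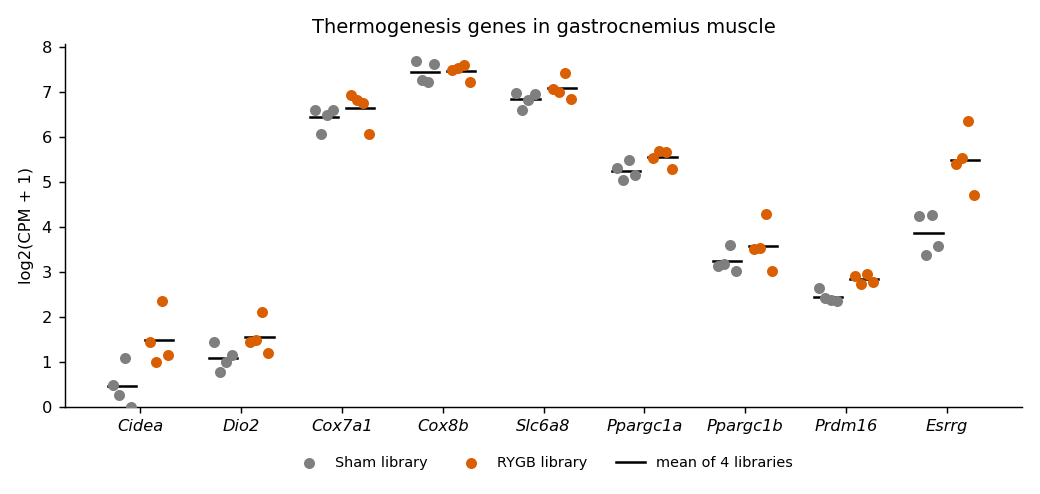
Level of the 9 members listed in gastrocnemius muscle, as log2(CPM + 1), with 1 point for each of the 4 Sham (gray) and 4 RYGB (orange) libraries and a line at the group mean. Esrrg and Prdm16 are the only members whose groups do not overlap, and the groups of Cox8b have almost the same mean.

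Esrrg (chr1:187608791-188214885) was at 40.8, 45.3, 80.0 and 25.1 CPM in the RYGB muscle libraries and at 18, 9.4, 18.1 and 10.9 CPM in the Sham libraries. All 4 RYGB libraries exceeded the highest Sham library, as was so for 4.77% of the genes tested in muscle. The log2 fold change was 1.63 ± 0.33 (SE; 95% interval 0.90 to 2.36), with an unadjusted p of 0.0006 and an adjusted p of 0.112. Within lane 2, the only lane with both groups, the difference was 1.65. Without RYGB replicate 4, the lowest of its group, the gene was called (1.89, adjusted p = 0.0191), and over the 15 alternatives the adjusted p ranged from 0.016 to 0.441.

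Markers of slow and oxidative muscle fibres, the fibres richest in mitochondria, were ordered across libraries much as Esrrg was. Their sum over 8 genes was 7059, 5980, 11209 and 2429 CPM in the RYGB libraries and 1453, 686, 1865 and 702 CPM in the Sham libraries. All 8 had an unadjusted p under 0.05 and none was called, and their log2 fold changes had a median of 3.91. Pearson's r between this sum and Esrrg was 0.95 across the 8 libraries once group means were removed, and points share each library's composition. For the other members r with the same sum was 0.89 for Ppargc1a, 0.86 for Ppargc1b, 0.79 for Cidea, 0.71 for Cox7a1 and Slc6a8, 0.70 for Dio2, 0.54 for Prdm16 and 0.36 for Cox8b. The part of the fibre makeup of the dissected muscle in these values was not tested.

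**Figure D4:**
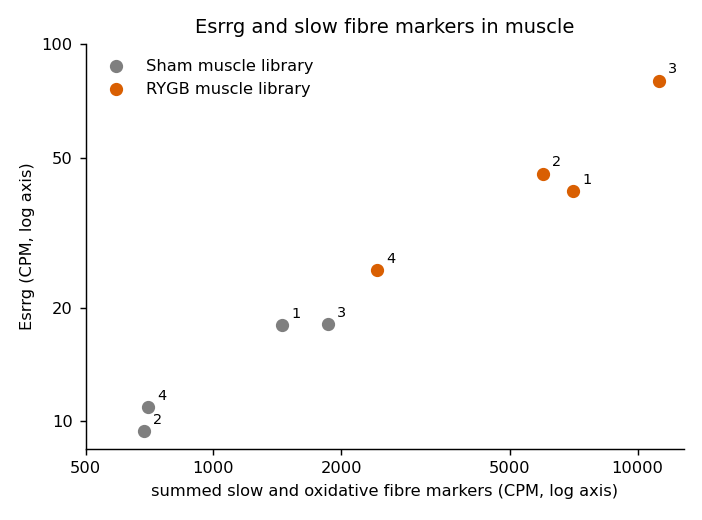
Esrrg in CPM against the summed CPM of 8 slow and oxidative fibre markers in the 8 muscle libraries, both on log axes, with the replicate number beside each point. Esrrg rises with slow fibre RNA across most libraries, although RYGB replicate 1 has more slow fibre RNA and less Esrrg than RYGB replicate 2, and RYGB replicate 4 lies nearest to the Sham libraries.

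Prdm16 was low in muscle and tightly measured, at 6.5, 5.6, 6.7 and 5.8 CPM after RYGB and 5.2, 4.3, 4.2 and 4.1 CPM after sham surgery. Its groups did not overlap, with a log2 fold change of 0.39 ± 0.11 (SE; adjusted p = 0.166). Cidea was at 1.7, 1.0, 4.1 and 1.2 CPM after RYGB and 0.4, 0.2, 1.1 and 0.0 CPM after sham surgery (1.03 ± 0.32 SE, adjusted p = 0.195). Replicate 3 was highest in both groups for Cidea. White adipocyte markers in muscle summed to 849 to 2461 CPM after RYGB and 457 to 2102 CPM after sham surgery, highest in replicate 3 of each group. Much of that sum was Lpl, a lipase gene that muscle itself expresses (398.3 to 1725.5 CPM after RYGB, 147.6 to 610.2 CPM after sham surgery). Without Lpl the sum was 803, 444, 735 and 451 CPM in the RYGB libraries and 337, 309, 1492 and 395 CPM in the Sham libraries. Adipoq, the adiponectin gene and a defining adipocyte marker, averaged 19.8 CPM after RYGB and 37.6 CPM after sham surgery, and the 11 markers had a median log2 fold change of -0.03, with 5 positive and 6 negative. The part of adipocyte RNA in the Cidea values was not tested.

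Ppargc1a, which drives mitochondrial biogenesis in oxidative fibres, was at 45.2, 50.6, 49.4 and 38.1 CPM in the RYGB muscle libraries and 38.5, 31.8, 44.0 and 34.4 CPM in the Sham libraries. The fold change was small and the groups overlapped (0.30 ± 0.12 SE, adjusted p = 0.313). Ppargc1b ranged from 7.1 to 18.3 CPM and from 7.1 to 11.1 CPM (0.35, adjusted p = 0.552), and Dio2 from 1.3 to 3.3 CPM and from 0.7 to 1.7 CPM (0.47, adjusted p = 0.353). By the correlation used for Ucp1 in WAT, the 5 genes most like Ppargc1a in muscle were Chmp2b (0.99) and Nrd1, C1qtnf9, Ndufa2 and Wdr75 (0.98 each).

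The abundant metabolic members differed least in muscle. Cox8b, at 179.1, 182.6, 192.9 and 147.5 CPM after RYGB and 203.6, 152.3, 146.8 and 196.6 CPM after sham surgery, had a log2 fold change of 0.01 with a 95% interval of -0.28 to 0.31 (adjusted p = 0.98). This interval holds changes of less than 1.5-fold in either direction. Cox7a1 ranged from 65.3 to 121.0 CPM and from 65.3 to 95.9 CPM (0.21, adjusted p = 0.68). Slc6a8 was at 114.1 to 169.1 CPM after RYGB and 95 to 124.0 CPM after sham surgery, with a log2 fold change of 0.25 ± 0.13 (SE; 95% interval -0.04 to 0.55). Per kilobase of exon, Cox8b (488 CPM per kb after RYGB, 486 after sham surgery) and Cox7a1 (189 and 161) were the most abundant members in muscle. Within lane 2 the differences of these other 8 members ran from 0.04 for Cox8b to 0.84 for Cidea. The difference between the fold changes of WAT and muscle was not tested, since each table was normalized on its own.

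No gene of the wider lists was called in muscle. Over all 11966 genes tested in muscle, 1746 had an unadjusted p under 0.05 in either direction, and the median log2 fold change was 0.05. Among the further brown adipocyte genes 15 were tested, 14 had a positive fold change and 8 an unadjusted p under 0.05, with a median of 0.61. Both counts include Eva1a, which reached the minimum mean of 1 CPM only through its RYGB libraries (mean 1.42 CPM, against 0.65 CPM in the Sham group). Its place in them is therefore not independent of its direction. Of the 15 genes, Fabp3, a fatty acid binding protein gene, and Plin5, a lipid droplet gene of oxidative tissues, were named after their values were seen. Both had a log2 fold change of 1.94 (adjusted p = 0.116 and 0.112). Oxidative fibres express both genes. Among relatives of the members, Esrrb, the sister gene of Esrrg, was at 5.6 to 19.0 CPM after RYGB and 1.5 to 3.1 CPM after sham surgery (1.89, adjusted p = 0.091), while Esrra (0.15), Ucp2 (0.40), Ucp3 (0.19), Cidec (0.18), Cox7a2 (0.16), Cox8a (0.24) and Pprc1 (0.09) were closer to 0.

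In the liver 2 of the 5 listed members were called higher and 0 lower, where 5.79% of all genes tested were called higher and 1.29% lower, and the median log2 fold change over all liver genes was 0.13. Slc6a8 rose from 9.4, 13.2, 9.4 and 8.4 CPM in the Sham libraries to 18, 24.9, 25.0 and 17.9 CPM in the RYGB libraries. The groups were fully apart, with RYGB above Sham as in 13.4% of all liver genes tested, and with a log2 fold change of 1.02 ± 0.17 (SE; 95% interval 0.65 to 1.38, adjusted p = 0.00806) and within-lane differences of 0.42, 1.39 and 1.09 in lanes 2, 3 and 4. It stayed past the threshold in each of the 14 alternatives. Slc6a8 was thus called in 2 tissues, lower in WAT and higher in liver.

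Ppargc1a, which in liver is known for its response to fasting and its part in gluconeogenesis, was at 19.6, 26.9, 18.7 and 26.4 CPM after RYGB and 12, 12.9, 16.2 and 12.7 CPM after sham surgery. The groups did not overlap, and the log2 fold change was 0.72 ± 0.15 (SE; adjusted p = 0.0195), with 0.57, 0.86 and 0.84 within lanes 2, 3 and 4. The call was lost under median ratio scaling (0.58, adjusted p = 0.054) and without Sham replicate 1, 2 or 4 (0.67, 0.70 and 0.69, adjusted p = 0.0567, 0.052 and 0.0546). Ppargc1b (2.7 to 4.1 against 2.3 to 3.5 CPM), Cox7a1 (0.6 to 1.4 against 0.8 to 2.3 CPM) and Esrrg (1.2 to 5.5 against 2.6 to 4.6 CPM) were low and not called. Summed macrophage markers were higher in the RYGB livers, at 552 to 1579 against 215 to 404 CPM, and their part in the liver results was not tested.

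The villi of the small intestine expressed Slc6a8 above every other tissue, at 855.6 to 2591.2 CPM, although levels set across separately normalized tables are approximate. Its fold change was 0.31 in the duodenum, -0.21 in the jejunum and -0.29 in the ileum, with overlapping groups and adjusted p of 0.51, 0.604 and 0.421. In the duodenum 0 of 5 members were called, as against 0.00922% of all genes tested in either direction. Ppargc1b was the 1 duodenal member with every RYGB value above every Sham value, where 12.7% of all duodenal genes were so, at 21.8, 26.5 and 20.1 CPM after RYGB and 18.9, 12.2, 17.9 and 10.9 CPM after sham surgery (0.60 ± 0.22 SE, adjusted p = 0.201).

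In the jejunum 0 of 5 members were called, where 9.75% of all genes tested were called in either direction. Ppargc1a was at 71.1, 25.8 and 94.5 CPM after RYGB and 103.3, 101.7, 127.9 and 84.3 CPM after sham surgery (log2 fold change -0.87 ± 0.37 SE, adjusted p = 0.181). RYGB replicate 2, sequenced in another lane from the rest, was lowest, and within lane 1 the difference was -0.33. Cox7a1 was at 62.9 to 120.0 CPM against 35.8 to 72.0 CPM (0.67, adjusted p = 0.221), with 0.83 within lane 1.

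In the ileum 1 of 5 members was called higher and 0 lower, where 1.64% of all genes tested were called higher and 4.42% lower. Cox7a1 was at 47.7, 82.3, 38.5, 76.4 and 75.1 CPM in the 5 RYGB libraries and 27.9, 28.7, 25.3, 18.1 and 31.1 CPM in the 5 Sham libraries. All RYGB values exceeded all Sham values, which held for 2.42% of the genes tested in ileum, and the log2 fold change was 1.22 ± 0.22 (SE; 95% interval 0.74 to 1.70, adjusted p = 0.011). The call held in each of the 15 alternatives. The 11 ubiquitous cytochrome c oxidase subunits also had positive fold changes in the ileum (median 0.44, against -0.09 over all genes). None of them was called, and 9 had an unadjusted p under 0.05, as did 2842 of all 10735 genes tested. No lane held both groups in the ileum, so the effects of surgery and lane cannot be told apart.

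Ppargc1a in the ileum was at 27.5 to 100.3 CPM after RYGB and 80.5 to 137.4 CPM after sham surgery (-0.70, adjusted p = 0.153), and Prdm16 at 1.1 to 12.5 and 5.2 to 19.8 CPM (-1.05, adjusted p = 0.18). Neither was called. Without RYGB replicate 4, the highest of its group, Prdm16 was called lower (-1.46, adjusted p = 0.0371). Ppargc1b overlapped between the groups (0.25, adjusted p = 0.682).

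**Figure D5:**
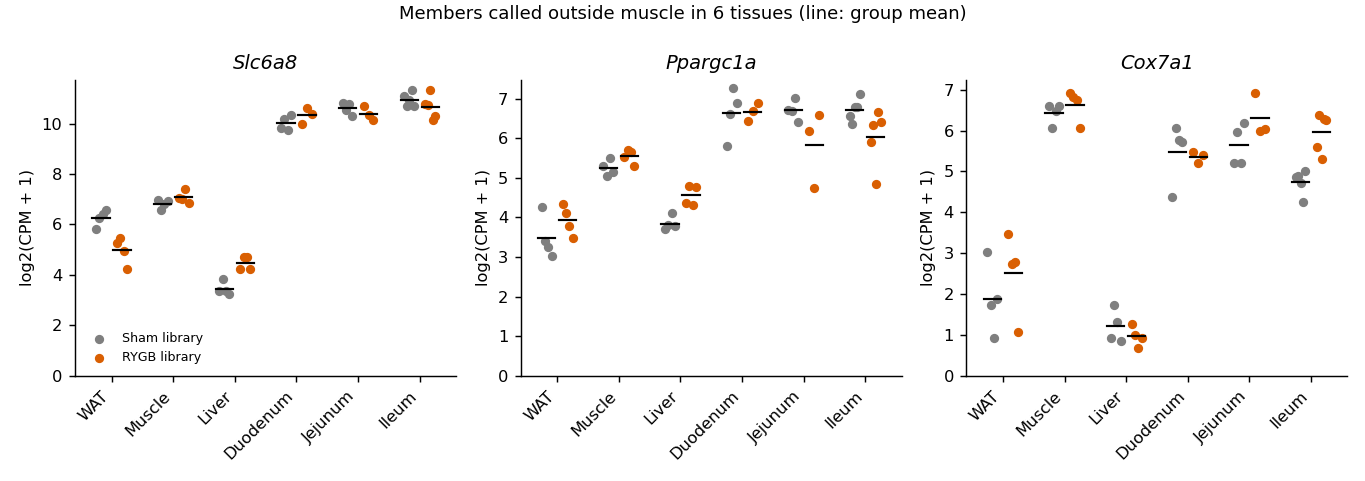
Slc6a8, Ppargc1a and Cox7a1 in the 6 tissues as log2(CPM + 1), with 1 point per library (Sham gray, RYGB orange) and a line at each group mean. Slc6a8 is lower after RYGB in WAT and higher in liver, Ppargc1a is higher in liver, and Cox7a1 is higher in ileum.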

How the data were processed

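RNA was sequenced from 48 libraries of 6 mouse tissues prepared with a stranded mRNA kit. The authors deposited 1 table per tissue of CPM (counts of a gene per 1000000 counts of its library), rounded to 0.1. HTSeq and GRCm38 are named in the submitters' processing notes, and the aligner and annotation release are not given in the sources used here. The deposited values of ileum, jejunum and liver Sham replicate 4 were recorded as a score, because repeated lines or 12 irregular lines broke the sum of a CPM column. Repeated lines (1 to 408 per table) held equal values and were counted once, the 12 liver lines were left out, and columns then summed to between 925122 and 998777. Depth is unknown, and no count model, interval or floor that needs it was used. Rounding limits genes under about 1 CPM.

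The 2 groups of a tissue were compared by limma 3.58.1 (lmFit, eBayes with trend, two-sided) in R 4.3.3 on log2(CPM + 1), keeping genes whose mean reached 1 CPM, with Benjamini-Hochberg adjustment. Tables were prepared in Python 3.11.15 with pandas 2.3.3 and numpy 2.4.6, and the method was tested on simulated data. The members and the 16 gene lists were chosen with earlier results of these data known. Named besides the members were genes of each pathway list that were called (at most 4 in each direction), close relatives, and the 5 genes most like Ucp1 in WAT and Ppargc1a in muscle. Fabp3, Plin5 and Eva1a in muscle and Adrb3, Lep, Slc27a1 and Hoxc9 in WAT were named after their values were seen. Alternatives were another pseudocount, minimum CPM or scaling, lane or replicate number as a term, and each library left out. Coordinates are GRCm38 with GENCODE M21.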

Additional observations from a re-analysis of the deposited data

Results flagged for a closer look

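Of 68 sets of 4 or 5 libraries (a member in 1 group of a tissue) tested for a library far from the rest, 2 held one, where chance alone flags about 1 in 20 sets (3.4 of 68). Gaps and ranges were taken on log2(CPM + 1). In WAT, Dio2 in RYGB replicate 1 was 3.2 CPM, and its gap to the next library was 0.865 of the range of the group. In the ileum, Ppargc1b in Sham replicate 4 was 5.0 CPM, with a gap of 0.749 of the range on the same log2 scale. Slc6a8 went opposite ways in 2 tissues: the RYGB libraries were all above the Sham libraries in liver and all below in WAT, and the fold changes differed by 2.30 on the log2 scale. That difference was not tested, because the tables were normalized separately.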

How the results depend on the processing

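Under the alternatives, 0 to 2 members were called higher in WAT when single libraries were left out (0 in the main analysis), 1 with the replicate block (Cox8b, adjusted p = 0.0154) and 1 after scaling to white adipocyte markers, while the 1 called lower became 0 under that scaling. In muscle, 2 members were called higher with the replicate block (Esrrg, adjusted p = 0.016, and Cidea, adjusted p = 0.0296) and 0 to 1 without single libraries. Muscle Cidea reached the minimum for testing only through its RYGB libraries. In liver, 1 was called higher under median ratio scaling and 1 to 2 without single libraries, and in ileum 0 to 1 were called lower. The replicate numbers did not meet the criterion for pairing, since correlations between libraries of one number ranged from -0.281 to 0.389 and in no tissue were all above 0.1, so the block stands only as an alternative. Libraries correlated best with their own number in 3 of 8 cases in WAT, 1 of 8 in muscle, 6 of 8 in liver, 0 of 6 in duodenum, 1 of 6 in jejunum and 5 of 10 in ileum. The block changed no other call of a member.

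Some fold changes that were not called turned sign. With lane as a covariate, Ucp1 in WAT was -0.57 and Cox7a1 -0.02. Scaled to white adipocyte markers, Prdm16 in WAT was 0.14 and Esrrg 0.30, and Esrrg was 0.07 without both libraries highest in muscle RNA. In muscle, Cox8b was -0.11 without both libraries highest in adipocyte RNA and -0.05 under median ratio scaling, and Ppargc1a in duodenum was -0.09 under that scaling. When single libraries were left out, ranges crossing 0 were -0.28 to 0.87 (Ucp1, WAT), -0.18 to 0.04 (Esrrg, WAT), -0.06 to 0.09 (Cox8b, muscle), -0.25 to 0.24 (Ppargc1a, duodenum), -0.24 to 0.24 (Prdm16, duodenum), -0.50 to 0.06 (Cox7a1, duodenum) and -0.31 to 0.59 (Prdm16, jejunum). Leaving out both libraries highest in RNA of another cell type and scaling the gene lists to white adipocyte markers were chosen after seeing the data.

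Counts over all genes moved too. With a minimum of 10 CPM, 3 genes were called in muscle (0 in the main analysis), 458 in liver (836), 664 in jejunum (1058) and 333 in ileum (650). Under median ratio scaling, 2 were called in muscle. With the replicate block, 184 were called in muscle and 268 in duodenum (1), and with lane as a covariate 469 in jejunum. Without single libraries the counts ran from 0 to 210 in muscle, 329 to 1204 in liver, 0 to 757 in duodenum, 462 to 1015 in jejunum and 312 to 766 in ileum. For none of these shifts was a cause tested. Lane could not be fitted in ileum, where no lane held both groups, or in duodenum, where every library shared 1 lane. Rounding to 0.1 CPM and unknown depth limit Dio2, Cidea in muscle and other genes near 1 CPM.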
